A study of Mus musculus with 6 samples.

Results

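The mature arms of the miR-26a and miR-26b hairpins were followed in 6 libraries of small RNA from mouse embryonic stem cells, 1 library for each of 6 groups. The members were mmu-miR-26a-5p, mmu-miR-26b-5p and mmu-miR-26b-3p, 3 of the 1899 mature microRNA (miRNA) entries counted, matched by their full names. They were chosen by a measured value, the higher level of miR-26b-3p at both times of doxycycline than in untreated Wt1 knockout cells, so that difference is described here and supports nothing. All 6 libraries came from 129/Ola cells grown on gelatin in medium with leukemia inhibitory factor and serum. The wild-type (WT) cells were untreated or given retinoic acid (RA), a vitamin A derivative that makes stem cells differentiate, at 1 µM (the labels write 1 µm, taken as micromolar). The cells with a knockout of Wt1 (Wt1 KO in the figures), a zinc finger transcription factor of the developing kidney and gonad, were untreated, given RA, or given 1 µg/ml doxycycline (dox) for 12 h or 24 h to switch on an inducible Wt1. The sources used here state neither the duration of RA nor the clone that carries the inducible gene, and no library of dox-treated cells without that gene was analysed here, so induction, dox itself and a difference between clones cannot be told apart. Loss and return of Wt1 were not checked, because its mRNA is outside what small RNA libraries measure.

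A miRNA gene is transcribed as a hairpin, which Drosha and then Dicer cut to a short duplex of a 5p and a 3p arm. Usually the guide arm is loaded into an Argonaute protein while its partner, the passenger arm, is mostly lost, and the guide finds target mRNAs mainly through its seed, bases 2 to 8. The miR-26 hairpins lie in introns of genes for small phosphatases that act on the C-terminal domain of RNA polymerase II. Their 5p arm is the guide, accumulates as cells differentiate, and is reported to repress Ezh2, the histone H3K27 methyltransferase of Polycomb complexes. In zebrafish, miR-26b is reported to repress its host ctdsp2 during neurogenesis.

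The sequences are shown because the 5p arms share their seed while the 3p arms do not all do so. They are from RefSeq (GRCm38.p6), equal to those in the deposited tables apart from U for T, and printed 5′ to 3′ with the seed in capitals. The arms of the 3 hairpins are:
miR-26a-5p: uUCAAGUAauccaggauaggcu
miR-26b-5p: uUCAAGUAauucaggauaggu
miR-26b-3p: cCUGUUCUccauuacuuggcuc
miR-26a-2-3p: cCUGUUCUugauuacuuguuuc
miR-26a-1-3p: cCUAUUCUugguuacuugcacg

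From miR-26a-5p to miR-26b-5p the substitutions are C11U and C21U, counted from 1 at the 5′ end, and miR-26a-5p is 1 base longer. No other entry of the files carries the seed of these 5p arms. miR-26a-2-3p has the seed of miR-26b-3p and differs from it by U9C, G10C, U19G and U20C, whereas miR-26a-1-3p differs from miR-26a-2-3p within the seed, by A4G. The only other entries with the seed of miR-26b-3p were miR-6932-3p and miR-7039-3p, with at most 1 read in any library. miR-26a-5p comes from 2 hairpins and its reads cannot be assigned to either. No read of any miR-26 arm was entered as a multi-match.

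The miR-26b hairpin is shown since both of its arms are members, with the 5p arm (bases 15 to 35) and the 3p arm (bases 51 to 72) in capitals:
Mir26b: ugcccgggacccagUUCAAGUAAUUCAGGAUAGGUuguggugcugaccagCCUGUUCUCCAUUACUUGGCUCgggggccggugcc

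Mir26b lies at chr1:74394310-74394394 on the plus strand of GRCm38, in intron 4 of the protein-coding 7-exon transcript of Ctdsp1 (GENCODE M21). Mir26a-1 lies at chr9:119031796-119031885, in intron 5 of the 8-exon transcript of Ctdspl. Mir26a-2 lies at chr10:126995530-126995613, in intron 5 of the 8-exon transcript of Ctdsp2, and 1 of its bases lies in an exon of 2 shorter transcripts. All 3 hairpins are on the strand of their host gene. The sources used here do not name the build of the alignment.

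Uniquely matched reads numbered 83626 in the RA-treated knockout and 1063945 to 6106104 in the other 5 libraries. Levels are given as normalised CPM, the read count over the library total, with totals rescaled by trimmed means of M values (TMM) over the 351 miRNAs with a mean count of at least 50, which include all 3 members. As each group is a single library, differences are without a replicate check. The 95% intervals in brackets cover counting error only. They take each read as independent, which PCR copies are not. All 12 stem cell markers of the miR-290 cluster had reads in every library, 16.0% to 23.4% of the reads in the 4 libraries without RA, 9.39% in the RA-treated knockout and 0.751% in RA-treated WT. The HOX cluster miRNAs that mark RA-treated cells held at most 0.0458% without RA, 10.9% in RA-treated WT and 2.39% in the RA-treated knockout. The fibroblast and mesenchyme markers made up 1.30% of the untreated knockout library, 6.27% of untreated WT and 2.63% to 3.82% elsewhere. Muscle, blood and neural markers each held at most 0.387% of any library. miR-1a-3p and miR-206-3p of the muscle list and miR-223-3p and miR-451a of the blood list were at 0 throughout. The 0.387% was the blood list after 12 h of dox, where 4720 of its 4754 reads were of miR-150-5p. Entries reported to overlap ribosomal or transfer RNA, taken as a sign of RNA quality, held 1.40% of the reads in the RA-treated knockout and 0.192% to 0.711% in the others.

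miR-26a-5p was the abundant member and miR-26b-3p the scarce passenger arm. The mean count was 31282 for miR-26a-5p, 2671 for miR-26b-5p and 89.2 for miR-26b-3p, which ranked 17, 66 and 294 among all entries. Over the 6 libraries the SD of the log2 level was 0.48, 0.46 and 0.72 in the same order, against a median of 0.77 over the 351 miRNAs. In bulk libraries fewer cells of a type and less RNA per cell cannot be told apart.

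The level of miR-26a-5p was 9309 CPM in untreated WT, 7556 in the untreated knockout, 9517 at both dox times, 18249 in RA-treated WT and 14532 in the RA-treated knockout. Both RA libraries thus stood above the 4 libraries without RA, the untreated knockout was lowest, and the 3 libraries in between did not differ beyond counting error. The level of miR-26b-5p was 1210 CPM in untreated WT, 841 in the untreated knockout, 1017 after 12 h of dox, 1040 after 24 h, 1286 in RA-treated WT and 2129 in the RA-treated knockout. The untreated knockout was again lowest, the dox libraries did not differ from each other beyond counting error, and the RA-treated knockout stood above the rest.

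miR-26b-3p had 42 reads in untreated WT, 18 in the untreated knockout, 49 after 12 h of dox, 89 after 24 h, 333 in RA-treated WT and 4 in the RA-treated knockout. Scaled to depth these were 38.6, 12.8, 43.3, 26.2, 49.7 and 37.0 CPM. The untreated knockout was the lowest library for this arm too, and its interval [7.56 to 20.2 CPM] lies below those of the others except the RA-treated knockout [10.1 to 94.8 CPM]. From dox 24 h upward, no neighbours in the order of levels differed beyond counting error, but the neighbour of dox 24 h was the RA-treated knockout, with 4 reads. Libraries further apart did differ. Dox 24 h [21.0 to 32.2 CPM] lay below RA-treated WT [44.5 to 55.4 CPM], and below dox 12 h at a log2 ratio of -0.73 [-1.25 to -0.19]. RA-treated WT had the highest level, but only 0.19 [-0.24 to 0.66] on the log2 scale above dox 12 h.

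**Figure D1:**
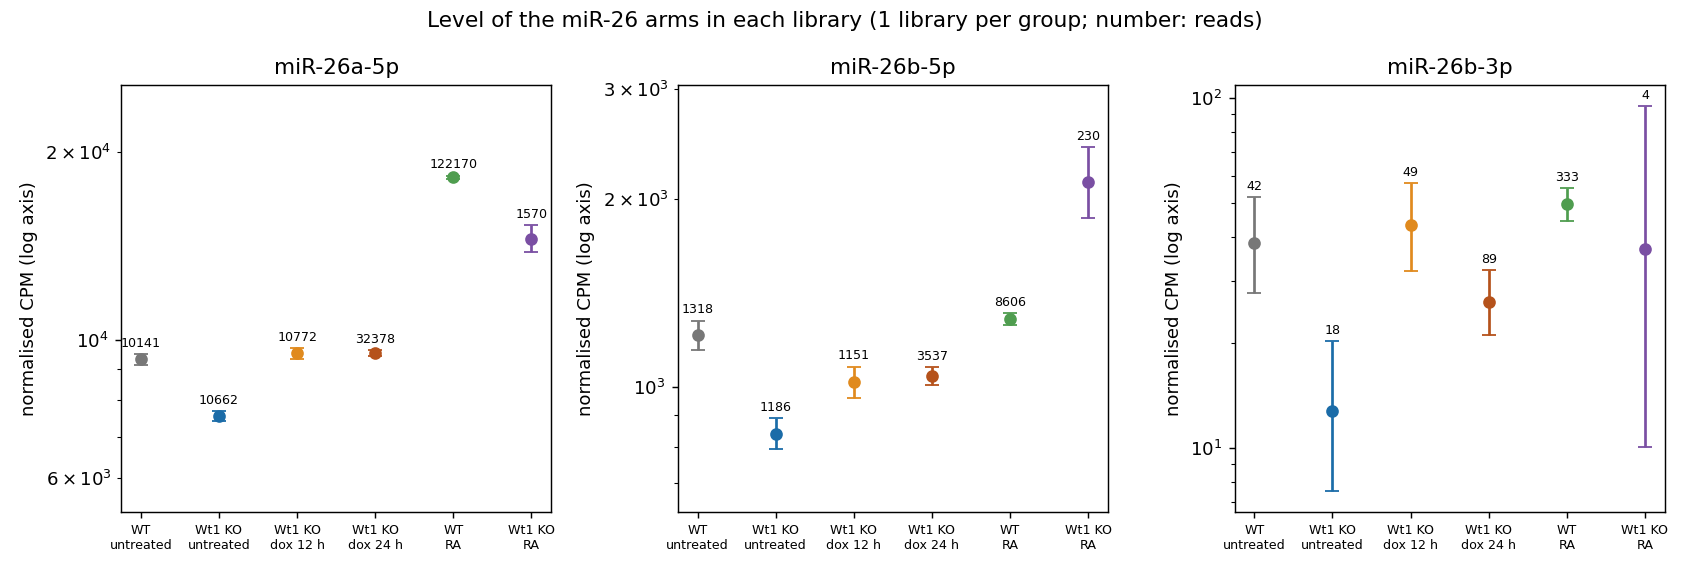
Normalised CPM (log axis) of miR-26a-5p, miR-26b-5p and miR-26b-3p in the 6 libraries, with exact Poisson intervals as bars and the read count above each point. The untreated knockout is the lowest point in each panel, and the bar of miR-26b-3p in the RA-treated knockout rests on 4 reads. For miR-26b-3p, the place of the untreated knockout below the dox libraries is what chose the members.

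The share of the 3p arm among miR-26b reads does not depend on scaling between libraries. It was 3.09% [2.23 to 4.15] in untreated WT, 1.50% [0.888 to 2.35] in the untreated knockout, 4.08% [3.04 to 5.36] after 12 h and 2.45% [1.98 to 3.01] after 24 h of dox, 3.73% [3.34 to 4.14] in RA-treated WT and 1.71% [0.468 to 4.32] in the RA-treated knockout (exact Clopper-Pearson intervals). The 5p arm was thus the major arm in every library, by 23.5 to 65.9 reads per 3p read. The untreated knockout had the lowest share and dox 12 h the highest, from the same 18 and 49 reads of miR-26b-3p that chose the members.

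**Figure D2:**
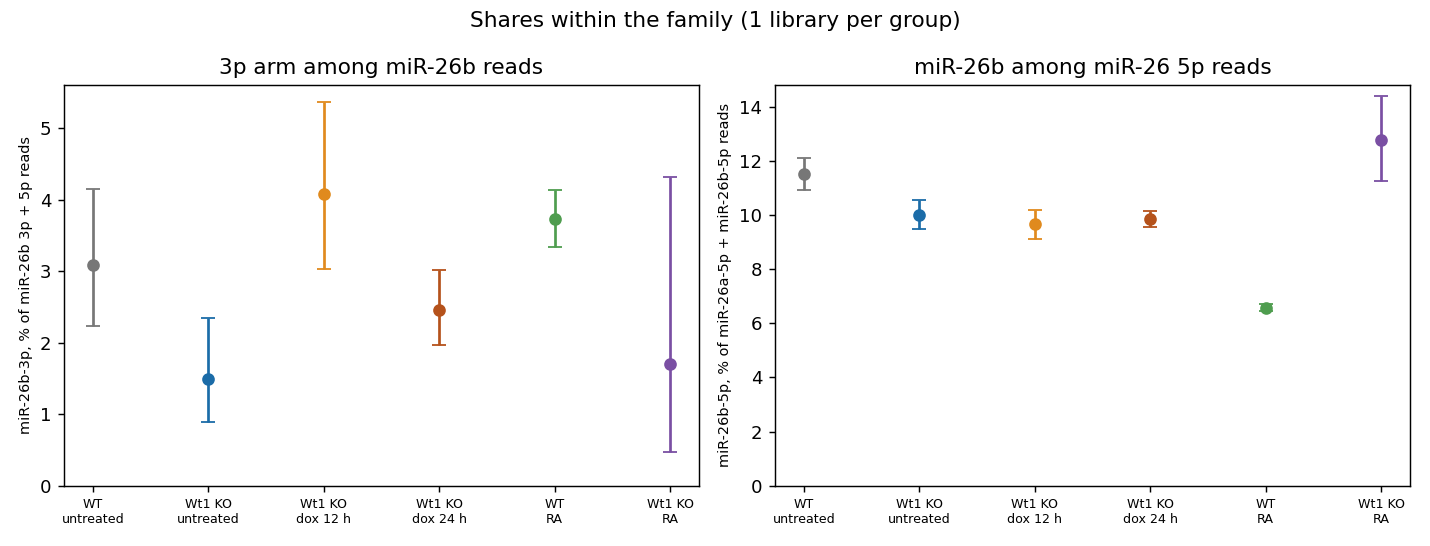
Share of miR-26b-3p among miR-26b reads (left, %) and of miR-26b-5p among the reads of both miR-26 5p arms (right, %) in the 6 libraries, with exact Clopper-Pearson intervals as bars. The left panel is lowest in the untreated knockout (1.50%) and highest after 12 h of dox (4.08%), and the right panel is lowest in RA-treated WT (6.58%) and highest in the RA-treated knockout (12.8%).

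The dox libraries were set against the untreated knockout to describe which miRNAs differ after dox, given to switch on Wt1. miR-26b-3p was 3.34-fold higher after 12 h, a log2 ratio of 1.74 [0.96 to 2.63] from 49 and 18 reads, and 2.01-fold higher after 24 h, at 1.00 [0.29 to 1.86] from 89 and 18 reads. These are the values that chose the members. A miRNA is called when its log2 ratio is 1 or more in either direction and the interval leaves out 0. By this rule 1 member was called at each time, miR-26b-3p. Of the 351 miRNAs 12.8% were called in either direction and 4.27% as higher at 12 h, and 9.40% and 5.70% at 24 h. The 24 h value lies at the threshold. It fell to 0.92 with a prior count of 2 in place of 0.5 and to 1.00 (not called) with multi-matches added, and was 1.04 with no prior count.

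The 5p arms moved less than miR-26b-3p, by amounts that depend on the scaling. miR-26a-5p was at 0.33 [0.29 to 0.37] after 12 h and 0.33 [0.30 to 0.36] after 24 h, and miR-26b-5p at 0.27 [0.16 to 0.39] and 0.31 [0.21 to 0.40], none of them called. As CPM of the total, miR-26a-5p was at 0.54 and 0.57 and miR-26b-5p at 0.48 and 0.54. Without the clusters miR-290 and miR-302 in the total they were at 0.66 and 0.64, and at 0.60 and 0.62, again not called. Both dox comparisons share the untreated knockout library and so its 18 reads of miR-26b-3p. The median log2 ratio of all miRNAs in these comparisons was -0.08 and -0.01, and as CPM of the total it shifted by 0.21 and 0.23. The fibroblast and mesenchyme markers, at 1.30% of the reads in the untreated knockout, were at 2.90% and 2.63% after 12 h and 24 h of dox, with miR-214-3p of the 8 at 0 in all 3 libraries. Most of these reads were of miR-22-3p (21282, 34138 and 90543), at 1.00 and 0.82 on the log2 scale, whereas miR-31-5p was at -0.62 and -0.32, and none of the 5 markers analysed was called at either time. Of the 3 primed pluripotent markers analysed, all of the miR-302 cluster, 1 was called higher at 12 h (median 0.92) and 3 at 24 h (median 2.23). Over all miRNAs 4.27% and 5.70% were called higher. The part of either list in the result was not tested.

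From 12 h to 24 h of dox miR-26b-3p was lower again, at -0.73 [-1.25 to -0.19], while miR-26a-5p was at 0.00 [-0.03 to 0.03] and miR-26b-5p at 0.03 [-0.06 to 0.13]. No member was called, against 5.41% of all miRNAs. Set against untreated WT, a library the rule did not use, miR-26b-3p was at 0.16 [-0.46 to 0.80] after 12 h and at -0.57 [-1.10 to 0.01] after 24 h of dox. Its 49 and 89 reads in the dox libraries are among the values that chose the members, so these ratios are not separate from that choice. miR-26b-5p was at -0.25 [-0.37 to -0.14] and -0.22 [-0.31 to -0.13]. miR-26a-5p was at 0.03 at both times, a value that turned to -0.12 and -0.10 as CPM of the total. No member was called against WT at either time, where 29.6% of all miRNAs were called at 12 h and 25.6% at 24 h.

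The untreated knockout was compared with untreated WT to describe cells that lack Wt1. All 3 members had negative log2 ratios, and miR-26b-3p was called as lower. miR-26b-3p was at -1.57 [-2.48 to -0.77] from 18 and 42 reads, miR-26b-5p at -0.53 [-0.64 to -0.41] and miR-26a-5p at -0.30 [-0.34 to -0.26]. The 1 call of 3 stands beside 27.6% called over all miRNAs, whose median was 0.11. Under the other scalings the median of all miRNAs shifted by -0.36 to -0.06. This comparison shares the untreated knockout library, with its 18 reads of miR-26b-3p, with the dox comparisons that chose the members. The 3 primed pluripotent markers were all called lower here (median -2.28), as were 3 of the 5 fibroblast and mesenchyme markers analysed (median -1.92, with 1 called higher), and their part in the result was not tested.

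**Figure D3:**
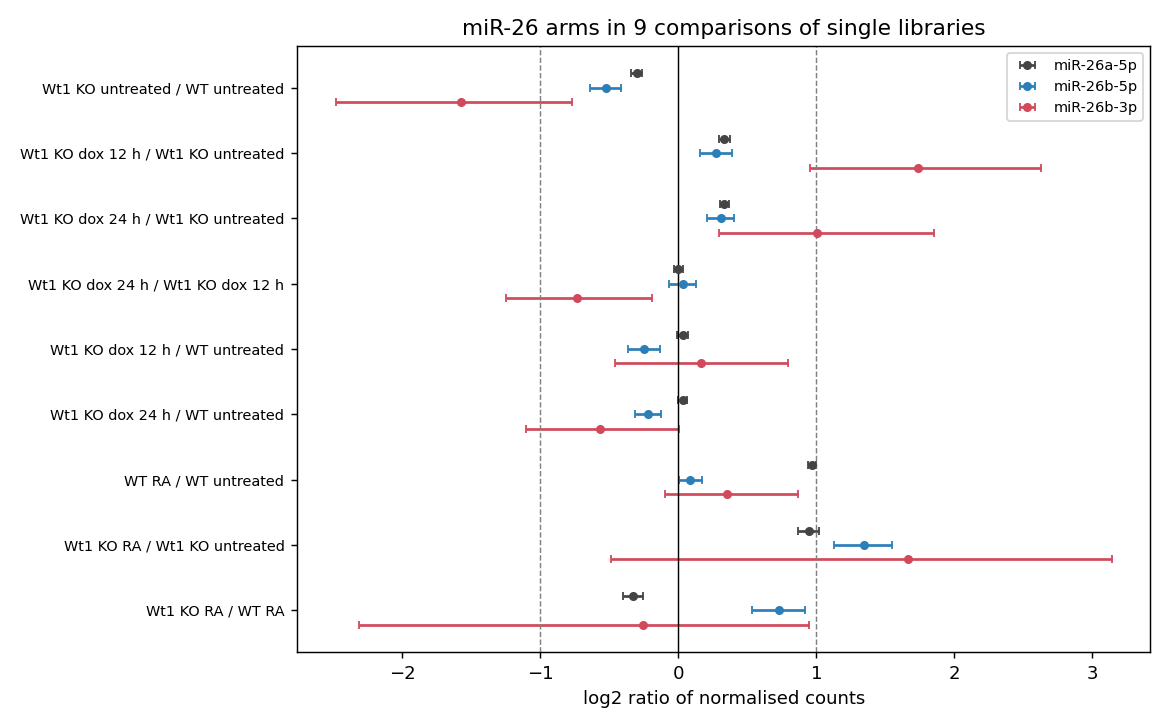
Log2 ratio of normalised counts of the 3 arms in 9 comparisons of 2 libraries each, with exact conditional binomial intervals as bars and dashed lines at -1 and 1. miR-26b-3p is at 1.74 and 1.00 in the dox comparisons and at -1.57 in the untreated knockout against WT, and miR-26a-5p lies close to 1 in both RA comparisons.

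RA treatment was compared with no treatment in each genotype, in libraries that the choice of members did not use except for the untreated knockout. miR-26a-5p, the main guide arm, was higher with RA in both genotypes, by amounts that depend on the scaling. It was at 0.97 [0.94 to 1.00] in WT, or 1.96-fold, and at 0.94 [0.87 to 1.02] in the knockout, or 1.92-fold, just under the threshold for a call. As CPM of the total it was called in both, at 1.07 in WT and 1.64 in the knockout, and without the stem cell clusters it was at 0.83 and 1.52. Both 5p arms together took 2.14% of the reads in RA-treated WT and 2.15% in the RA-treated knockout, against 0.670% to 1.08% in the 4 libraries without RA.

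miR-26b-5p was at 0.09 [0.00 to 0.17] with RA in WT, a value that turned to -0.06 with the stem cell clusters miR-290 and miR-302 taken out of the total, and at 1.34 [1.13 to 1.55] in the knockout. miR-26b-3p was at 0.35 [-0.10 to 0.87] in WT and, from 4 reads, at 1.67 [-0.49 to 3.14] in the knockout. No member was called in WT, where 46.4% of all miRNAs were, and miR-26b-5p was called in the knockout, where 46.2% were. In the knockout the median of all miRNAs shifted by 0.70 as CPM of the total, by 0.17 by the median of ratios and by 0.57 without the stem cell clusters. The miR-26b-5p call there was lost, at 0.99, when the scaling used all miRNAs with a read.

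With RA in both genotypes, the knockout against WT gave -0.33 [-0.40 to -0.26] for miR-26a-5p, which turned to 0.04 without the stem cell clusters in the total. miR-26b-5p was at 0.73 [0.53 to 0.92] and miR-26b-3p at -0.26 [-2.31 to 0.94], which turned to 0.11 in the same alternative. No member was called, against 37.9% of all miRNAs. The log2 response to RA was greater in the knockout than in WT by 1.26 [1.04 to 1.48] for miR-26b-5p, by 1.31 [-0.24 to 2.87] for miR-26b-3p and by -0.03 [-0.11 to 0.05] for miR-26a-5p, a value that ran from -0.39 to 0.69 over the alternatives. By the same size rule miR-26b-5p differed between the genotypes, as did 38.2% of all miRNAs. The RA-treated knockout was the shallowest library and held the largest share of ribosomal and transfer RNA entries (1.40%), whose part in these values was not tested. All 12 stem cell markers were called higher in it than in RA-treated WT (median 3.61), and their part was not tested either.

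The ratio between the 5p arms within a library needs no scaling. There were 7.69 miR-26a-5p reads per miR-26b-5p read in untreated WT, 8.99 in the untreated knockout, 9.36 after 12 h of dox, 9.15 after 24 h, 14.2 in RA-treated WT and 6.83 in the RA-treated knockout. RA-treated WT was thus highest, while the RA-treated knockout and untreated WT, the lowest, had overlapping intervals for the share of miR-26b-5p in both 5p arms (11.3% to 14.4% and 10.9% to 12.1%). With RA, miR-26b-5p over miR-26a-5p changed by -0.88 [-0.97 to -0.79] on the log2 scale in WT and by 0.40 [0.17 to 0.62] in the knockout, a difference of 1.28 [1.05 to 1.52]. With RA in both, the ratio was higher in the knockout than in WT by 1.06 [0.85 to 1.26]. With dox it changed by -0.06 [-0.18 to 0.07] at 12 h and -0.03 [-0.13 to 0.08] at 24 h over the untreated knockout.

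The 3p arms of the miR-26a hairpins, which are not members, were far scarcer than miR-26a-5p and below the minimum mean count. miR-26a-2-3p, which has the seed of miR-26b-3p, had 9 reads in untreated WT, 6 in the untreated knockout, 14 after 12 h of dox, 64 after 24 h, 24 in RA-treated WT and 1 in the RA-treated knockout. It was highest after 24 h of dox, at 18.8 CPM, against 12.4 at 12 h, 4.25 in the untreated knockout, 8.26 in untreated WT, 3.59 in RA-treated WT and, from 1 read, 9.26 in the RA-treated knockout. Its log2 ratio over the untreated knockout was 1.48 [0.07 to 3.21] at 12 h and 2.04 [0.94 to 3.64] at 24 h, and over untreated WT at 24 h it was 1.12 [0.17 to 2.38].

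Unlike miR-26b-3p, miR-26a-2-3p was not lower after 24 h than after 12 h of dox, at 0.57 [-0.24 to 1.55]. The ratio of miR-26a-2-3p to miR-26b-3p was higher at 24 h than at 12 h by 1.30 [0.30 to 2.42]. Within the miR-26a reads, miR-26a-2-3p over miR-26a-5p changed by 1.71 [0.61 to 3.31] after 24 h of dox over the untreated knockout and by -2.22 [-3.33 to -0.89] with RA in WT. miR-26a-1-3p had 2 reads in untreated WT, 1 after 24 h of dox, 7 in RA-treated WT and none in the other 3 libraries, whose limits for a count of 0 (3 counts) were 2.13, 2.65 and 27.8 CPM in the untreated knockout, dox 12 h and the RA-treated knockout.

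The arm ratio of miR-26b was set beside 138 hairpins whose lesser arm had a mean count of at least 10. After 12 h of dox the 3p to 5p ratio of miR-26b was higher than in the untreated knockout by 1.46 [0.67 to 2.36] on the log2 scale, rank 8 of the 138, and after 24 h by 0.70 [-0.02 to 1.55], rank 23. These changes rest on the miR-26b-3p reads that chose the members, so the call at 12 h and none at 24 h are a description, beside 18.1% and 11.6% of the hairpins called at these times. In the untreated knockout against WT it changed by -1.05 [-1.96 to -0.23] and was called, as were 12.3% of the hairpins, but with a prior count of 2 it was at -0.99 and not called. That change rests on the same 18 reads of miR-26b-3p in the untreated knockout, so it is no separate result. With RA the arm ratio changed by 0.27 [-0.19 to 0.79] in WT and 0.32 [-1.84 to 1.82] in the knockout, and the knockout against WT, both with RA, was at -0.99 [-3.05 to 0.24]. None of these was called, against 15.2%, 15.9% and 13.8% of the hairpins.

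Over the 138 hairpins the median change of the lesser over the greater arm was 0.20 at 12 h and -0.02 at 24 h, with 79 and 66 hairpins above 0 and, at 12 h, 15 called up and 10 down. In 6 hairpins the change of the 3p to 5p ratio was above that of miR-26b at both times. miR-409, a hairpin of the imprinted Dlk1-Dio3 locus, was at 3.75 [3.19 to 4.44] and 3.76 [3.43 to 4.11]. Unlike in miR-26b, its 3p arm was the greater arm, at 19438 reads against 528 in the untreated knockout. Its lesser arm, 5p, thus fell against the greater, to 24 reads beside 12160 at 12 h and 88 beside 43973 at 24 h. miR-290a, of the stem cell cluster, was at 2.14 [1.86 to 2.43] and 1.35 [1.09 to 1.62]. miR-20a was at 2.12 and 1.90, miR-503 at 2.32 at both times and miR-1247 at 2.85 and 1.02, each from at most 2 reads of the 3p arm in the untreated knockout. The intervals of miR-503 at both times, of miR-20a at 12 h and of miR-1247 at 24 h included 0.

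**Figure D4:**
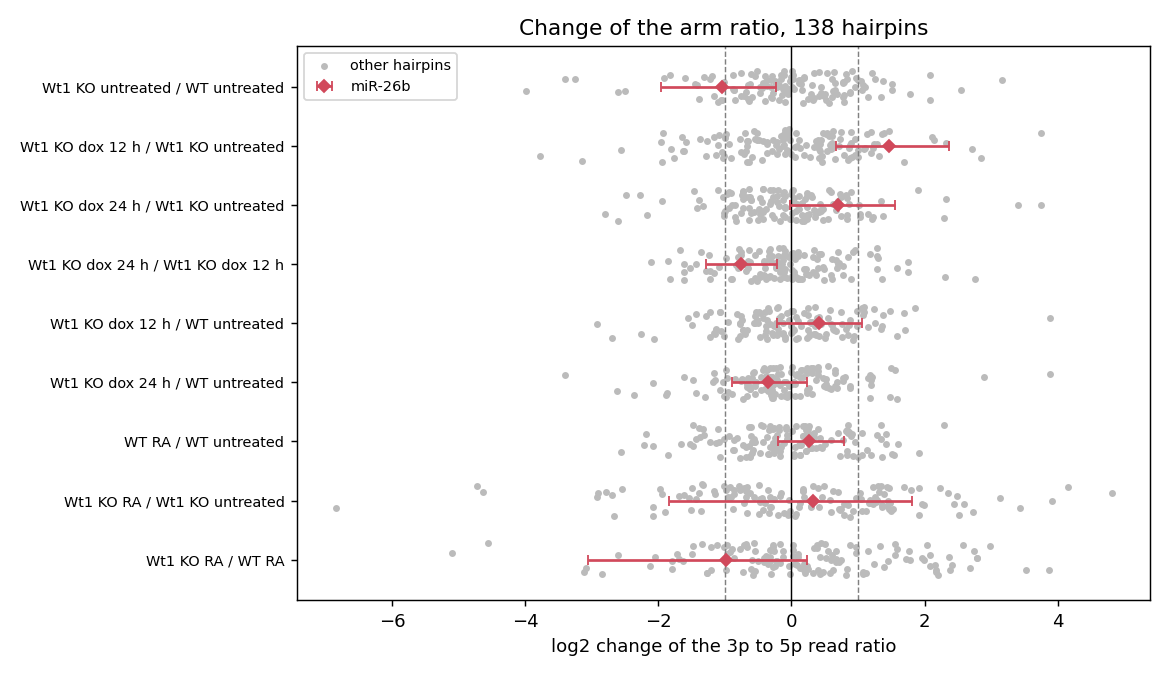
Log2 change of the 3p to 5p read ratio in 9 comparisons, with a grey point for each other hairpin, a red diamond for miR-26b with its exact conditional interval, and dashed lines at -1 and 1. miR-26b is at 1.46 after 12 h of dox over the untreated knockout and at -1.05 in the untreated knockout against WT, in both cases inside the range of the other hairpins.

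Likeness of pattern was measured as the root mean square difference of log2 levels, each centred on its mean over the 6 libraries, which share depth and scaling. The miRNAs closest to miR-26a-5p were miR-487b-3p at 0.18 (Pearson r = 0.94 over 6 libraries), miR-377-5p at 0.20 (r = 0.95) and miR-434-5p at 0.21 (r = 0.88), all of the Dlk1-Dio3 locus. Closest to miR-26b-5p were miR-532-3p at 0.23 (r = 0.85), miR-324-3p at 0.24 (r = 0.86) and miR-532-5p at 0.24 (r = 0.97). Closest to miR-26b-3p were miR-376a-5p at 0.32 (r = 0.92), miR-148b-5p at 0.39 (r = 0.82) and miR-671-3p at 0.44 (r = 0.75). miR-376a-5p had 31.2 CPM in the untreated knockout, its lowest library, and 81.4 CPM in RA-treated WT, its highest. These were also the lowest and highest libraries of miR-26b-3p. miR-376a-5p was picked for likeness over these same libraries, so the shared extremes are no separate result.

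Other guide miRNAs linked to differentiation were set beside the miR-26 arms. Of the let-7 family, which like miR-26 accumulates as cells differentiate, 7 miRNAs were analysed, and 6 were called higher with RA in WT and 4 in the knockout, none lower, beside 22.2% and 23.6% of all miRNAs called higher. The medians were 1.93 and 1.36, against 0.13 and -0.05 over all miRNAs. let-7c-5p was at 2.69 [2.58 to 2.80] in WT and 1.36 [1.16 to 1.56] in the knockout, against 0.97 and 0.94 for miR-26a-5p. After 12 h of dox 2 of the 7 were called lower (median -0.86), beside 8.55% of all miRNAs, let-7c-5p at -1.70 [-1.88 to -1.52] and let-7a-5p at -1.20 [-1.71 to -0.72], whereas the miR-26 5p arms were at 0.33 and 0.27. After 24 h of dox 1 of the 7 was called higher and none lower (median -0.14), beside 5.70% of all miRNAs called higher. From 12 h to 24 h 3 of the 7 were called higher (median 1.06), beside 15 of all 351 miRNAs.

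Of the miRNAs reported, like miR-26a, to target Ezh2, 7 were analysed, 3 of them let-7 miRNAs. With RA 3 were called higher and 1 lower in WT, and 4 higher and 1 lower in the knockout, with medians of 0.48 and 1.36. Called in either direction were thus 4 and 5 of 7, beside 46.4% and 46.2% of all miRNAs. miR-138-5p was at 0.00 [-0.25 to 0.28] in WT and 2.08 [1.63 to 2.49] in the knockout, and miR-101a-3p at 0.04 [-0.34 to 0.46] and 1.22 [0.53 to 1.82]. Of the 5 miRNAs of the miR-30 family 1 was called higher with RA in each genotype, with a median of 0.69 in WT and, changing sign with the scaling, -0.08 in the knockout, beside the same 22.2% and 23.6% called higher over all miRNAs. None of the 5 was called at 12 h or 24 h of dox over the untreated knockout, where 12.8% and 9.40% of all miRNAs were. Their medians there were 0.27 and 0.38.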

How the data were processed

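Small RNA of 6 mouse embryonic stem cell libraries was counted per mature miRNA. Per the file headers, the deposited counts are of reads with a unique match to an entry and, in another column, of multi-matches, and per the labels' protocols 2 gel bands of small RNA were pooled for each library. The sources used here name no aligner, mismatch setting or build. Unique-match counts as deposited were scaled by TMM (edgeR 4.0.16, R 4.3.3) over 351 entries whose mean count reached 50. Log2 ratios had a prior count of 0.5 and an exact conditional binomial 95% interval. Arm ratios had an exact conditional odds ratio interval, and differences between responses a delta-method interval. There were no replicates, so no test was run. Calls needed a log2 ratio of 1 or more in either direction and an interval that leaves out 0. The interval code was checked on simulated counts.

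The members, lists and size rule were chosen with earlier results of these data known. Other miRNAs were named by rule: the 3 with the smallest root mean square difference from each member, the hairpins whose arm ratio rose more than that of miR-26b at both dox times (up to 5), and up to 4 of each list. The lists were the let-7 and miR-30 families, miRNAs reported to target Ezh2, RNA quality entries, and markers of embryonic stem, primed pluripotent, RA-treated, fibroblast and mesenchyme, muscle, blood and neural cells. The primed pluripotent markers held at most 0.0774% of any library. Alternatives were CPM of the total, DESeq2 1.42.0 size factors, a total that leaves out the clusters miR-290 and miR-302, other minimum and prior counts, and multi-matches added. An alternative without a prior count was added after the data were seen.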

Additional observations from a re-analysis of the deposited data

Results flagged for a closer look

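The response of miR-26b-5p to RA differed between the genotypes by the size rule, by 1.26 on the log2 scale, with ratios of 0.09 in WT and 1.34 in the knockout. By the same rule 38.2% of all miRNAs differed. The RA-treated knockout was the shallowest library, at 83626 reads. The 12 stem cell markers held 9.39% of its reads, against 0.751% in RA-treated WT. The part of depth and of these markers was not tested. The interval [1.04 to 1.48] covers counting error only, and the difference was not tested across replicates. It ran from 0.89 to 1.97 over the alternatives.

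The ratio of miR-26b-5p to miR-26a-5p moved in opposite directions with RA, by -0.88 in WT and 0.40 in the knockout, a difference of 1.28 that no scaling changes. Each response rests on 2 single libraries, and the difference was not tested.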

How the results depend on the processing

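No paired analysis was possible because each group has 1 library. Of 234 log2 ratios of the members recomputed under alternatives, 11 had the opposite sign and 10 another call. The number of members called changed as follows. With a minimum mean count of 200, which leaves out miR-26b-3p, it was 0 for the untreated knockout against WT and for both dox times. After 24 h of dox it was also 0 with a prior count of 2 or with multi-matches added. With RA in WT it was 1 as CPM of the total, where 171 of all 351 miRNAs were called. With RA in the knockout it was 3 as CPM of the total or without the stem cell clusters, 2 by DESeq2's median of ratios and 0 with no minimum. Of all 351 miRNAs, 159, 157 and 153 were called under the first of these settings, in that order. Called higher were 126, 116 and 91, against 83 by the main scaling. For the knockout against WT, both with RA, 1 member was called without the stem cell clusters, beside 130 of all 351 miRNAs.

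Counts over all miRNAs moved with the minimum, which changes how many are tested. At 200 they were 102 for WT given RA, 53 for the untreated knockout against WT, 23, 18 and 11 for dox 12 h, dox 24 h and 24 h against 12 h, and 68 and 52 for the dox libraries against WT. At 10 they were 73, 62 and 37 for the 3 dox comparisons. With no minimum they were 83, 77 and 46 there, 276 for RA in WT and 152 for dox 24 h against WT. The split of the 45 calls at 12 h of dox, 15 higher and 30 lower, turned to 35 and 13 (CPM of the total), 22 and 23 (median of ratios) or 44 and 9 (stem cell clusters left out). That of the 33 calls at 24 h, 20 and 13, turned to 31 and 10 (CPM of the total) or 37 and 6 (these clusters left out). For the untreated knockout against WT, 43 and 54 turned to 24 and 78 or 25 and 76 under the same scalings. For RA in the knockout, 83 and 79 turned to 126 and 33 or 116 and 41. For the knockout against WT, both with RA, 66 and 67 turned to 82 and 42 or 93 and 37, and to 80 and 47 by the median of ratios. For dox 12 h against WT, 43 and 61 turned to 32 and 72 as CPM of the total. With a lesser arm mean of at least 50, the hairpins called were 9 for the untreated knockout against WT, 10 for dox 24 h and 3 for 24 h against 12 h. The order of the levels of each member moved under some scalings, while the untreated knockout stayed lowest for each member in all orders computed. For miR-26b-3p its place below the dox libraries is what chose the members, so that this held is no support. Depth limits miR-26b-3p in the RA-treated knockout, at 4 reads.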
